A study of Mus musculus with 2 samples.

Results

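The small structured RNAs Rmrp, Rpph1, Rn4.5s and Mir142b were followed through an RNA immunoprecipitation experiment on nucleolin, an RNA-binding protein of the nucleolus, which asked what transcripts nucleolin targets. These are 4 of the 23924 gene symbols in the deposited table and take up 13 of its 33529 rows, 10 of them listed copies of Rn4.5s. They were chosen by symbol because their values in the 2 libraries were already known to stand out, so those values are given as a description and not as a test. The material was RAW 264.7, a line of mouse macrophages. Both libraries came from cells depleted of mRrp6, a ribonuclease of the nuclear exosome, and stimulated with LPS (lipopolysaccharide, a bacterial cell wall component) at 80 ng/ml for 12 h. Nuclear extract without the cytosolic fraction was incubated with an antibody to nucleolin in one library and with rabbit IgG, the control, in the other. The nucleolin library is the one titled as nucleoplasmic RNA, matched through the NCL name of its column and the design text. There was 1 library per antibody, so the differences below lack a replicate check, and undepleted or unstimulated cells are not part of the comparison. The labels do not say how mRrp6 was depleted.

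RNase MRP and RNase P are ribonucleoprotein enzymes built on related RNAs and a largely shared set of proteins. RNase MRP, with the RNA of Rmrp, cuts the ribosomal RNA precursor in the nucleolus, where nucleolin is abundant, and RNase P, with the RNA of Rpph1, removes the 5′ leader of transfer RNA precursors. The 4.5S RNA of Rn4.5s is a small RNA of rodents made by RNA polymerase III from repeated genes. Mir142b is a microRNA gene that lies antisense to Mir142, a microRNA gene known for its activity in blood cells, macrophages included.

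All 4 members were found in the RefSeq gene table of GRCm38.p6, which is mm10. Rmrp lies on chromosome 4 from 43492785 to 43493059 and is 275 bases long, with the annotated type RNase MRP RNA, although the deposited table describes it as a mitochondrial RNase P component. Rpph1 lies on chromosome 14 from 50807447 to 50807771 (325 bases). The single Rn4.5s locus in that table lies on chromosome 6 from 47654921 to 47655094 (174 bases), inside the span of the gene model Gm40369. Mir142b lies on chromosome 11 from 87756841 to 87756955 (115 bases), and its span covers all 64 bases of Mir142.

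The microRNA sequences are shown because the overlap of the 2 genes bears on what a fragment at this place can be assigned to. In the 3 mature RNAs (RefSeq, GRCm38.p6), capitals mark the seed, bases 2 to 8, which pairs with targets.
mmu-miR-142b (chromosome 11, 87756906 to 87756925, minus strand): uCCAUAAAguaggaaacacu
mmu-miR-142a-5p (chromosome 11, 87756867 to 87756887, plus strand): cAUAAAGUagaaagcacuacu
mmu-miR-142a-3p (chromosome 11, 87756903 to 87756925, plus strand): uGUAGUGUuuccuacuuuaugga
Each seed differed from the other two, and among 1738 mature mouse microRNAs none shared a seed with any of them. All 20 bases of miR-142b lay within the reverse complement of miR-142a-3p. Against miR-142a-5p, shifted by 2 bases, miR-142b matched at 16 of 18 aligned bases.

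The hairpins of the 2 genes follow, with the mature RNAs in capitals.
Mir142b hairpin: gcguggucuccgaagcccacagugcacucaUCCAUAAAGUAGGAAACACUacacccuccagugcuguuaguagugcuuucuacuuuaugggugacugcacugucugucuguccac
Mir142 hairpin: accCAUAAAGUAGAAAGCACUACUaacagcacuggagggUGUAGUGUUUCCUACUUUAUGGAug
The Mir142 hairpin was found whole in the reverse complement of the Mir142b hairpin. Both were predicted to fold, with minimum free energies of -50.6 kcal/mol for the Mir142b hairpin and -26.9 kcal/mol for the shorter Mir142 hairpin, and 67.8% and 68.8% of their bases paired. Whether strand was used in counting is not given in the sources used here, and without strand a fragment from within the Mir142 span cannot be told apart between the 2 genes.

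Values are in FPKM, fragment numbers divided by the length of the transcript and by the size of the library. A gene is called listed from 0.1 FPKM. Rmrp reached 1061 FPKM with IgG and was listed at 0 with nucleolin. Rpph1 reached 340.0 FPKM with IgG and 169.8 FPKM with nucleolin, a ratio of 0.499. Each of the 10 Rn4.5s rows was at 0 with IgG and at 474 FPKM with nucleolin, and the 10 sum to 4741 FPKM. Mir142b reached 10684 FPKM with IgG and was at 0 with nucleolin. The members thus showed 3 patterns: the RNase MRP RNA and the microRNA gene were listed with IgG only, the 4.5S RNA with nucleolin only, and the RNase P RNA with both. Over all genes, 3200 were listed in at least 1 library; 46.0% of these were listed with IgG only, 37.2% with nucleolin only and 16.8% with both. Presence in 1 library was therefore the common case, and nothing is read from it for the members.

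**Figure D1:**
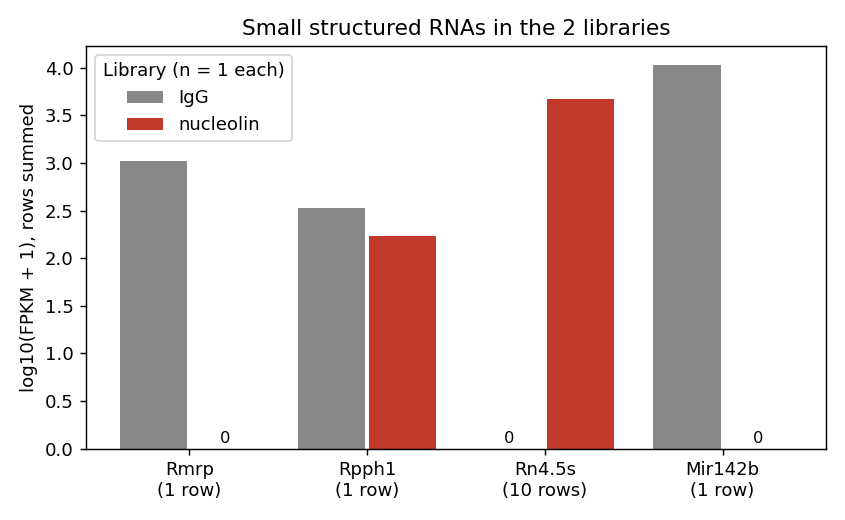
Level of the 4 small RNAs in the IgG (grey) and nucleolin (red) libraries, as log10(FPKM + 1) with the rows of a symbol summed, 1 library each and no error bars. Rmrp and Mir142b have a bar with IgG only, Rn4.5s with nucleolin only, and Rpph1 in both, at 340.0 and 169.8 FPKM.

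By FPKM these RNAs stood near the top of the tables. Mir142b ranked 3 among all genes of the IgG library with 5.61% of its summed FPKM, and Rmrp ranked 12 with 0.557%. Rn4.5s ranked 4 in the nucleolin library with 1.31%. Rpph1 ranked 30 with IgG and 28 with nucleolin. With the ribosomal RNA precursor Rn45s, Lars2 and the microRNA genes Mir6236 and Mir142b set aside, Rn4.5s made up 13.2% of what was left in the nucleolin library and Rmrp 1.09% in the IgG library.

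Such levels can rest on few fragments, since FPKM divides by length, and the number of fragments was estimated. For a gene at equal fragment numbers in both libraries, 1/FPKM in one library is a straight line in 1/FPKM of the other if the quantifier subtracts a fixed length from the transcript. Of 246 low genes with 1 row and a value in both libraries, 147 fell on 1 such line within 0.01 on the log2 scale, with an SD of 0.00077 around it. Rpph1 was not used for the line and deviated from it by -0.058 on the log2 scale, at 169.8 FPKM where equal numbers give 177 FPKM. Its lower FPKM in the nucleolin library was thus close to what the same number of fragments in both libraries gives.

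**Figure D2:**
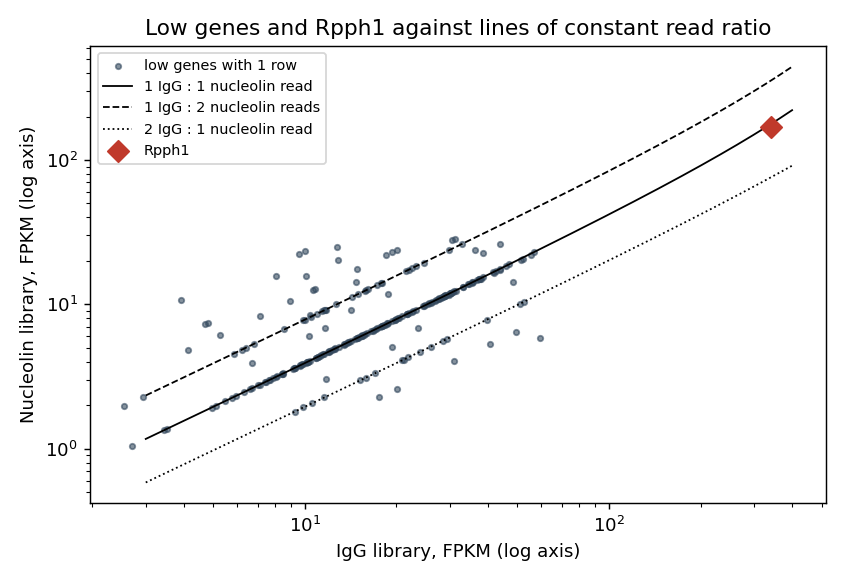
FPKM in the nucleolin library (vertical, log axis) against the IgG library (horizontal, log axis) for 246 low genes with 1 row (dots) and for Rpph1 (red diamond), with lines at fragment (read) ratios of 1 to 1, 1 to 2 and 2 to 1. Most dots and Rpph1 lie on or next to the line of equal numbers.

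The worth of 1 fragment was set from messenger RNAs and a long non-coding RNA without introns, whose RefSeq span is their length. In the IgG library, Hist1h1d, Hist1h1b and Ier2 came to 1 fragment each, Malat1 to 3 and Junb to 5, all within 0.0003 of a whole number once 202.4 bases were subtracted from each length. In the nucleolin library, which was not used in that fit, Junb came to 1, Cebpb to 2 and Malat1 to 15 fragments, within 0.0007, with 233.8 bases subtracted. These scales put the number of fragments behind the FPKM scaling at 23665 for IgG and 60887 for nucleolin. The numbers are the smallest that make all these genes whole; the true ones may be a common multiple.

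Rpph1 and Rmrp are longer than the subtracted lengths, and their estimates moved less with the assumed fragment lengths than those of the shorter members. Rpph1 came to 0.971 to 0.994 fragments with IgG and 0.944 to 1.03 with nucleolin when fragment lengths were taken as normal with an SD of 40 to 120 bases. It rested on about 1 fragment in each. Rmrp came to 1.84 to 2.05 fragments in the IgG library, so its 1061 FPKM rested on about 2 under this form of the correction. If fragments longer than the RNA were instead left out of the length correction, Rpph1 came to 0.988 to 1.16 and 0.956 to 1.34 fragments. Rmrp then came to 1.90 to 2.87, nearing 3 fragments only at the widest spreads. At the widest, 120 bases, Rpph1 stood at 1.16 with IgG and 1.34 with nucleolin, further from whole numbers than under the first form. Where Rmrp and Rpph1 with IgG both came within 0.05 of whole numbers, Rmrp was at 1.95 to 2.05 over both forms. The limit of 0.05 itself sets the width of this range, so the range is not a check on the number.

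Mir142b and Rn4.5s are shorter than the subtracted lengths, and their estimates depended on the assumed fragment lengths. At the spreads where Rmrp and Rpph1 came within 0.05 of whole numbers, Mir142b came to 1.03 to 2.34 fragments in the IgG library, or 4.43 to 5.20 with longer fragments left out of the correction. At the spreads where Rpph1 did so in the nucleolin library, the 10 Rn4.5s rows together came to 1.12 to 5.39 fragments, or 5.20 to 9.21. Over every spread tried the ranges were 0.0515 to 12.0 for Mir142b and 0.342 to 18.6 for Rn4.5s. The 10684 FPKM of Mir142b, the third highest value of its library, could thus stand for a single fragment.

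**Figure D3:**
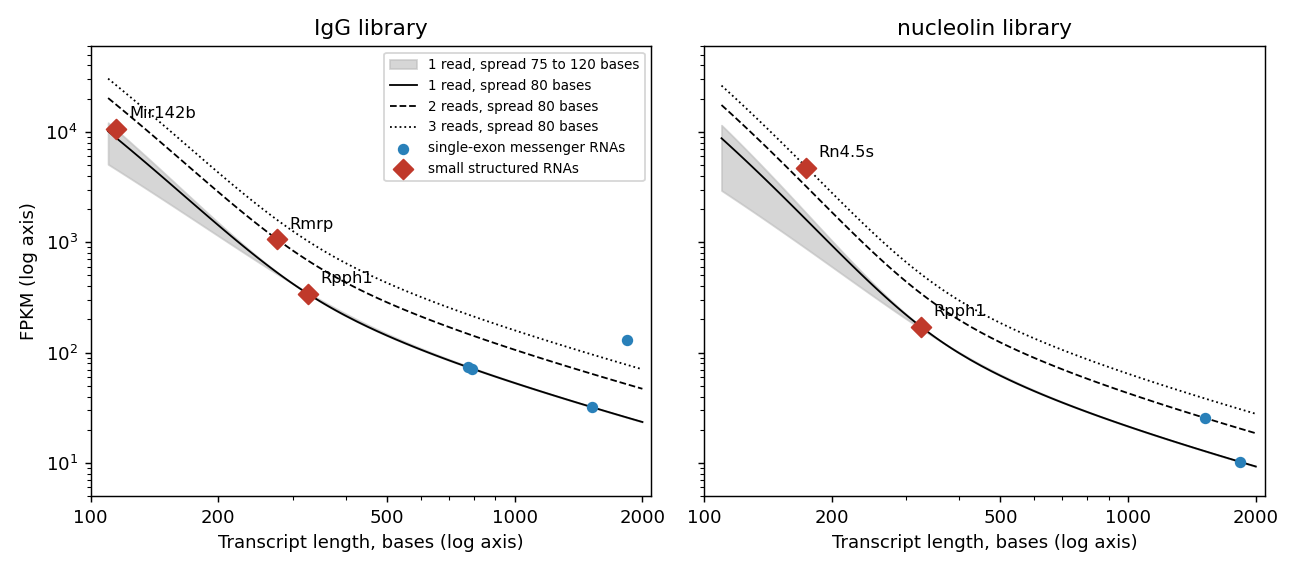
FPKM (log axis) against transcript length in bases (log axis) in each library, with lines for 1, 2 and 3 fragments (reads) at a fragment length SD of 80 bases, a band for 1 fragment at SDs of 75 to 120 bases, messenger RNAs without introns (blue) and the small RNAs (red). Rpph1 lies on the line of 1 fragment in both panels and Rmrp on that of 2 fragments; Mir142b (115 bases) and Rn4.5s (174 bases) lie where the lines are steep and the band is wide.

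**Figure D4:**
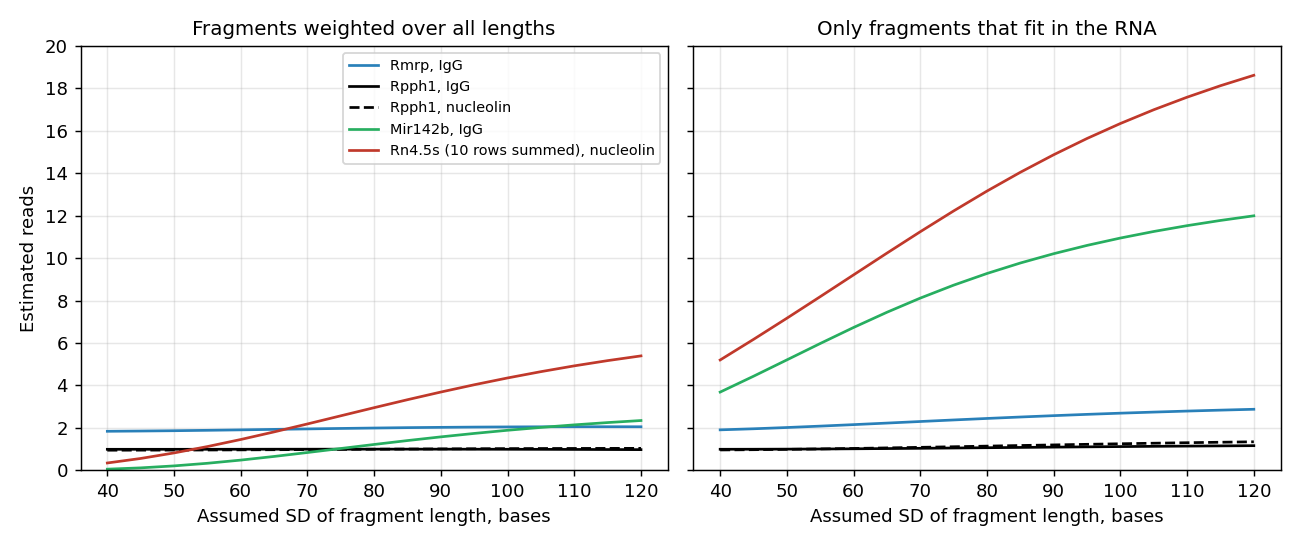
Estimated fragments (reads) behind each small RNA against the assumed SD of fragment length in bases, with fragments weighted over all lengths (left) or only those that fit in the RNA (right). Rpph1 stays near 1 and Rmrp near 2 on the left, while Mir142b spans 0.0515 to 12.0 and Rn4.5s 0.342 to 18.6 over both panels.

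The 10 Rn4.5s rows held identical values. How fragments of repeated genes were handled can be read at the Hist1h3 genes, near-identical histone H3 genes chosen for this after their values were seen. Of 8 such rows listed in the IgG library, 7 stood at 0.125 of a fragment, and the 8 rows summed to 1.02 fragments. If the Rn4.5s rows were handled alike, their sum counts each fragment once and a single row, at 474 FPKM, holds 1 share of the total.

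A value of 0 sets only a loose limit on the other side. In the nucleolin library, 1 fragment of Rmrp would have been listed at 247 to 339 FPKM over the spreads just named and both forms of the correction. In the IgG library, 1 fragment of Rn4.5s would have been listed at 1341 to 2454 FPKM over its rows. For Mir142b in the nucleolin library the same value ran from 722 to 54868 FPKM. Levels between 0 and these steps could not be seen.

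Whether counting error covered the difference of Rmrp between the libraries depended on its fragment number. At 2 fragments in the IgG library its rate was 0.845 per 10000 fragments, with an exact Poisson 95% interval from 0.102 to 3.05. In the nucleolin library 0 of 60887 fragments allow a rate of up to 0.493 per 10000 by the rule of 3 counts, or 0.606 per 10000 by the upper end of the exact Poisson 95% interval. The nucleolin-to-IgG rate ratio had an exact 95% interval from 0 to 2.07, which includes equal rates, so at this number a difference in Rmrp was not detectable. At 3 against 0 fragments, which Rmrp neared only at spreads where Rpph1 was not whole, the upper end was 0.941. At 4 against 0, the number if every count were doubled, it was 0.589. Both leave equal rates outside when rates are taken per library total, as in all intervals here. No interval was computed under another scaling, such as 1 fragment set equal in both libraries. Whether equal rates lie inside may depend on that choice, also for Rn4.5s and Mir142b. These intervals and limits cover counting error only, and fragments amplified by PCR are not independent molecules. Because the members were chosen for values that stood out, an interval without equal rates is not evidence of a difference, here or below.

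For Rpph1, at 1 fragment in each library, the rates were 0.423 per 10000 with IgG and 0.164 per 10000 with nucleolin. The interval of their ratio ran from 0.00495 to 30.5, so neither enrichment nor its absence could be read from it.

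For Rn4.5s at 0 against 3 fragments the lower bound of the ratio was 0.161, and at 0 against 9 it was 0.767. Equal rates were inside the interval over this range. No interval was computed above 9 fragments or for doubled counts, though the estimate reached 18.6 at the widest spread tried. Equal rates are thus not settled for Rn4.5s. For Mir142b at 1 against 0 fragments the upper bound was 15.2, and at 2 against 0 it was 2.07. At 4 or 5 against 0 fragments it was 0.589 or 0.424, which leaves equal rates outside. Whether counting error covered the difference at Mir142b thus depended on the form of the length correction. The libraries also differed by 31.4 bases in the length subtracted, and the part of longer fragments in the absence of Mir142b from the nucleolin library was not tested.

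Few other RNAs of this length were listed. Of 1194 genes with a span under 200 bases, 3 (0.251%) were listed in either library, Mir142b and Rn4.5s among them. Of 30 genes from 200 to under 400 bases, 2 were listed, Rmrp and Rpph1. The RNase P RNA-like genes Rprl1, Rprl2 and Rprl3, the vault RNA Vaultrc5 and the telomerase RNA Terc were at 0 in both libraries. Those 2 of 30 are 6.67%. The share was 7.26% for spans from 400 to under 800 bases and 1.97% from 800 to under 1600. Over all genes with a span, 13.4% were listed. Among 1056 microRNA genes, whose median span was 80 bases, 78 were at least as long as Mir142b, and both listed microRNA genes, Mir142b and Mir6236, were among these. None of the 978 shorter ones was listed, Mir142 included. Of 70 box C/D and 34 box H/ACA small nucleolar RNAs, which guide the modification of ribosomal RNA, and 9 small Cajal body RNAs, none was listed.

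The genes next to Rmrp and Rpph1 were listed with nucleolin only, as were 37.2% of all genes listed in either library, so nothing is read from this. Their fragment numbers were not estimated. Ccdc107, which starts 281 bases past the end of Rmrp, was at 0 with IgG and 28.3 FPKM with nucleolin. Parp2, a DNA repair enzyme gene that starts 126 bases past Rpph1, was at 0 and 10.6 FPKM. Tspoap1, listed as Bzrap1 and 1239 bases from Mir142b, was at 0 in both libraries.

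Messenger RNAs for the proteins that make, bind or process these RNAs were listed about as often as other genes, 13 of 78 (16.7%) against 13.4% over all genes with a span. Of 11 genes in the table for proteins of RNase P and RNase MRP, among them Pop1, Rpp30 and Rpp38, none was listed in either library. Of 37 genes for RNA polymerase III subunits and factors, which make Rmrp, Rpph1 and 4.5S RNA, 6 reached 1 FPKM. On log2(FPKM + 1), 2 of them were 2-fold or more higher and 4 lower in the nucleolin library, where 37.8% of all 3194 genes compared were higher and 56.7% lower. Polr3d, a polymerase III subunit, was at 23.3 FPKM with IgG and 9.21 FPKM with nucleolin, and Polr3c, another subunit, at 0 and 10.5 FPKM. The median log2 ratio of the 6 was -3.00, against -1.27 over all genes compared. Of the 6, 3 were listed with IgG only and 2 with nucleolin only, so values of 0 set this median and nothing is read from it. Polr3d, the 1 listed in both, had a log2 ratio of -1.25, near that of all genes.

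Among 17 genes in the table for proteins that bind or trim small RNAs, Ssb, which encodes the La protein that holds the 3′ end of new polymerase III transcripts, was at 22.7 FPKM with IgG and 0 with nucleolin, and Lsm4 at 0 and 23.2 FPKM. No other of these was listed. Of 13 microRNA processing genes, 5 reached 1 FPKM and all 5 were 2-fold or more lower as deposited, as were 56.7% of all genes compared. Their median log2 ratio of -1.24 was near that of all genes, and a low gene with equal fragment numbers already stands at a FPKM ratio of 0.393. Drosha, the nuclease that cuts microRNA hairpins from their precursors, was at 9.68 and 3.79 FPKM. Xpo5, the exporter of those hairpins, was at 12.0 and 4.73 FPKM, and Ran, which drives that export, at 20.3 and 7.995 FPKM, both on the line of equal fragment numbers. Ddx5 and Ddx17 had lower log2 ratios, -2.02 and -4.29. Ddx5 was at 63.7 FPKM with IgG and 15.0 FPKM with nucleolin, and Ddx17 at 18.5 and 0 FPKM.

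By distance on log2(FPKM + 1) over the 2 libraries, the genes near Rmrp included Gkn1 and Bola2, both at 0 with nucleolin and at 1163 and 934 FPKM with IgG. Nearest to Rpph1 were Cd14 (319 and 207 FPKM), Tmsb4x (271 and 151 FPKM) and Rplp0 (256 and 189.6 FPKM). Rn4.5s had no close match: Rpl23a, Lyz2 and Sdf2l1, the nearest, were at 0 with IgG and at most 202 FPKM with nucleolin. Nearest to Mir142b, though at distances of 1.07 to 1.71, were Pgc, Clps and Pla2g1b. They stood at 5078, 4349 and 3265 FPKM with IgG and 0 with nucleolin. Between RNAs of unlike length, a like FPKM does not mean a like number of fragments.

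Several of those neighbours by level are products of stomach and pancreas, and markers of other cell types were mostly listed with IgG, as were 46.0% of all listed genes with IgG only. Of 8 gastric and pancreatic secretory genes all 8 were listed with IgG, summing to 20619.5 FPKM, and none with nucleolin. The marker lists were chosen with earlier results of these data known. This one holds Pgc, Clps, Pla2g1b and Gkn1, named above, so its count is a description only. Of 6 epithelial markers 5 were listed with IgG only (448 FPKM in sum), as were 2 of 4 fibroblast markers (34.6 FPKM). The T cell marker Lck went the other way, at 0 with IgG and 8.92 FPKM with nucleolin, and the B cell and erythroid markers in the table were at 0 in both. The macrophage markers summed to 703 and 633 FPKM, and 8 of the 11 in the table were listed in at least 1 library. Cd14, Cd68, Spi1, Tyrobp and Fcer1g were listed in both, Lyz2, Csf1r and Itgam with nucleolin only, and Ptprc, Fcgr3 and Mrc1 were at 0 in both. The part of other cells' RNA in the IgG values of Rmrp and Mir142b was not tested.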

How the data were processed

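Per the file headers, the authors deposited 1 table of FPKM values with 1 column per library. The tools named are Trimmomatic 0.32 and FastQC 0.10.0 with build mm10, per the submitters' processing notes. The aligner, the quantifier and whether strand was used are not given in the sources. Rows without a symbol (56 rows, 0.0364% and 0.0794% of the summed FPKM of the IgG and nucleolin libraries) were left out, and the rows of a symbol were summed. Genes at 1 FPKM or more in a library were compared as log2((nucleolin FPKM + 1)/(IgG FPKM + 1)), which understates changes of low genes, and counted from a 2-fold difference. With 1 library per group, no test was made.

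Gene IDs were matched to RefSeq (GRCm38.p6; 99.7% of symbols). Fragment numbers were estimated from FPKM multiplied by length less a fitted offset, or, for lengths near or below that offset, by an effective length from normally distributed fragment lengths. Low genes were those below 60 FPKM (IgG) and 30 FPKM (nucleolin). The genes that set the worth of a fragment were taken from a list of genes without introns after their values were seen; Marcks, Ppp1r3b and Zfp503 were left out because their spans hold introns, as were histone genes with several rows or near-identical copies. Intervals are exact 95% Poisson intervals for rates and Clopper-Pearson intervals for ratios. The computation was tested on simulated data that met its assumptions, which does not test the assumptions. Members and gene lists were chosen with earlier results of these data known; named genes are the members, list members and, for each member, the 3 nearest genes, other exceptions being stated; 1 of these nearest genes is not reported here. Python 3.11.15, pandas 2.3.3, numpy 2.4.6, scipy 1.17.1 and ViennaRNA 2.7.2 were used.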

Additional observations from a re-analysis of the deposited data

How the results depend on the processing

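Of 29 alternatives, 22 kept the direction of the result and stayed within its counting interval or within 1.5 times its count. The log2 ratio of Rpph1, -0.997 as deposited, turned to 0.44 when both libraries were scaled to their sums without Rn45s, Lars2, Mir6236 and Mir142b, to 0.34 with 1 fragment set equal in both, and to 0.27 when centred on all genes; with 1 fragment in each library, its sign is set by the scaling. The Rn4.5s level fell from 4741 to 474 FPKM when only the highest row was kept, because the 10 rows are equal. The number of genes 2-fold higher in the nucleolin library, 1206, moved to 439 with a pseudocount of 10 and to 448 with a minimum of 10 FPKM; the cause was not tested. The expression of Rpph1 relative to the library totals or as plain fragment numbers was added after seeing the data; the plain numbers, 1 in each, give a log2 ratio of 0. No paired analysis was possible because the labels carry no replicate numbers and each group has 1 library. Depth limits every statement on the members: about 1 fragment in each library for Rpph1, and about 2 for Rmrp, up to 2.87 over the spreads tried. These are the smallest numbers that make the genes used for scaling whole, and the true ones may be a common multiple. Over all fragment length spreads tried, the estimates ran from 0.0515 to 12.0 for Mir142b and from 0.342 to 18.6 for Rn4.5s.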
